A study of Mus musculus with 30 samples.

Results

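A set of 35 genes that carry glucose into the cell, break it down to pyruvate and direct pyruvate to lactate or to the mitochondrion was followed in 5 lines of βTC3, an insulin-producing mouse insulinoma cell line. The genes were picked by symbol from the deposited count table of 39017 genes. All 35 had a row in the table, and 34 passed the low-count filter and were tested among 15627 genes. The exception was Pdk4, a kinase that switches pyruvate dehydrogenase off, which had 11 counts in all 30 libraries together.

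In each line, cells given activin B together with doxycycline (DOX) were set against cells given DOX alone, with 3 libraries per group. The lines were labelled ALK7 (DOX-inducible expression of ALK7, an activin type I receptor whose gene is Acvr1c), ALK7-DN (an inducible dominant-negative ALK7), sh2 and sh1/2 (inducible hairpins against ALK7) and control. Every cell, controls included, had 1 µg/ml DOX for 24 hours, and activin B was used at 50 ng/ml for 24 hours. The ALK7, ALK7-DN and control lines carried the PB-33 plasmid and the hairpin lines PB-31, and no PB-31 line lacking a hairpin was among the samples. Replicates were wells plated in triplicate, so the p-values measure only the spread between such wells, which may be technical. Batch 2 of the labels holds 6 libraries, ALK7-DN cells given activin B and sh2 cells given only DOX, and batch 1 the other 24, so batch and treatment cannot be told apart in the activin B responses of these 2 lines.

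Glucose enters cells through the SLC2A facilitative transporters, is trapped by hexokinases as glucose 6-phosphate and is committed to glycolysis by phosphofructokinase. In pancreatic beta cells the rate of glycolysis and of the mitochondrial oxidation that follows sets insulin secretion. Normal adult beta cells are known for keeping high-affinity hexokinases, lactate dehydrogenase A and the monocarboxylate transporter SLC16A1 at low levels.

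Library totals ran from 18904884 to 34740789 counts. Acvr1c stood at 40.9 to 81.3 CPM (counts scaled to library size with TMM factors) in the sh2 libraries and at 25.5 to 60.0 CPM in the sh1/2 libraries, against 95.2 to 170 CPM in the control libraries. In the lines labelled ALK7 and ALK7-DN it stood at 74.7 to 163 and 99.4 to 170 CPM, so neither expression construct was visible in the Acvr1c counts. These ranges hold both treatments, and mean Acvr1c was lower with activin B in every line. With activin B and with DOX alone it was 80.6 and 154 CPM in ALK7 and 107 and 161 in ALK7-DN cells. The means were 42.7 and 68.5 CPM in sh2, 26.7 and 55.3 in sh1/2 and 101 and 165 in control cells. The 10 beta cell markers summed to 13947 to 19000 CPM with activin B and to 12428 to 23635 CPM with DOX alone. By line, with activin B against DOX alone, the sums were 15911 to 17995 against 19861 to 21580 in ALK7 cells. They were 16671 to 19000 against 21584 to 23635 in ALK7-DN and 16129 to 16383 against 20310 to 22593 in sh2 cells. In control cells they were 14664.5 to 18162 against 21244 to 22389. These lines did not overlap, whereas sh1/2 cells did, at 13947 to 15832 against 12428 to 17830. The 12 markers of acinar, duct, stromal, endothelial, immune and liver cells summed to 11.5 to 22.2 CPM with activin B and 6.54 to 16.2 CPM with DOX alone. No marker was at 0 in every library, and the albumin gene Alb alone reached 15.5 CPM. GC-rich genes were low in 3 libraries. Over all genes tested, Spearman's rho between GC content and the deviation from the mean of all libraries was -0.57 in control with activin B replicate 2, and -0.49 and -0.53 in sh1/2 with DOX alone replicates 1 and 3. Counts of called genes that rest on these libraries are also given without the 3 of them together. That leaves sh1/2 cells with DOX alone with 1 library, replicate 2, which is then assumed to vary like the libraries of the other groups.

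Promoters are shown for the 4 genes that activin B changed in all 5 lines, because SMAD proteins, which carry activin signals to the nucleus, bind a short core motif. Hk1 and Pfkfb2 were added to the promoters shown after the responses were seen. Each window holds 250 bases before and 50 bases after a transcription start, from RefSeq on GRCm38.p6, written 5′ to 3′ on the gene's strand. RefSeq lists 2 starts for Hk1 and 3 for Pfkfb2, and the start nearest the GENCODE gene start was used. For Pfkfb2 even that window lies within the gene, downstream of its GENCODE start at 130729253 on the minus strand. The windows are chr3:28697653-28697952 (plus strand) for Slc2a2, chr10:62379859-62380158 (minus strand) for Hk1, chr1:130715999-130716298 (minus strand) for Pfkfb2 and chr3:104638414-104638713 (plus strand) for Slc16a1. Capitals mark matches, on either strand, to the SMAD core CAGAC or to ACGTG, the core recognised by hypoxia-inducible factors.
Slc2a2: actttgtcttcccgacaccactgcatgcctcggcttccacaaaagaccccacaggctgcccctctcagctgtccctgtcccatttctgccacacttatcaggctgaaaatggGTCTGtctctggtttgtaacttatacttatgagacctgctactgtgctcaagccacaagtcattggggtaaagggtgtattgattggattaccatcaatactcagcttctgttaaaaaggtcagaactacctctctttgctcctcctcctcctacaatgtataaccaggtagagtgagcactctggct
Hk1: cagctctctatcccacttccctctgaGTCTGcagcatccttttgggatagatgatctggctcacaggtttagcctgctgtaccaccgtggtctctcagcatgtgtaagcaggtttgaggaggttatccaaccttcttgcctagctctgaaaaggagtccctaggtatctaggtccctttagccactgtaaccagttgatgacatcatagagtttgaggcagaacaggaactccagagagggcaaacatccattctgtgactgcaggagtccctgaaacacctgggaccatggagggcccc
Pfkfb2: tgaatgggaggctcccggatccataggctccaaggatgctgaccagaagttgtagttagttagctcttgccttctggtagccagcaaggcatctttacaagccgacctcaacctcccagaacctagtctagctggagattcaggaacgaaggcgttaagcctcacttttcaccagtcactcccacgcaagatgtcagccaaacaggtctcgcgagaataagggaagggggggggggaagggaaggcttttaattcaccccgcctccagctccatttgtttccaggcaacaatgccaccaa
Slc16a1: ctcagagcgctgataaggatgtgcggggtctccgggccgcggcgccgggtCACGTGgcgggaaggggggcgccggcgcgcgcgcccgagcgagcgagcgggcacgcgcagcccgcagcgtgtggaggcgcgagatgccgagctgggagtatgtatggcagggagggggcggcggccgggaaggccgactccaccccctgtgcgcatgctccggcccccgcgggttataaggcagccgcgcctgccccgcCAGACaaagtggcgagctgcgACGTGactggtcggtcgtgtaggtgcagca
Slc2a2, Hk1 and Slc16a1 each held 1 match to CAGAC. Slc16a1 held 3 matches to ACGTG, 2 of which overlap within an E-box, CACGTG, read on both strands. The Pfkfb2 window held neither motif. Of all 32851 promoter windows of this length, 49.6% held CAGAC, 19.6% held ACGTG and 7.15% held CACGTG. Among the 34 genes of the set with an entry, CAGAC was found in 13, ACGTG in 15 and CACGTG in 5. A match is a description of the sequence and not a measured binding site.

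The first comparison asked what activin B does to these genes in each line. The glucose transporter Slc2a2, the hexokinase Hk1 and the phosphofructokinase regulator Pfkfb2 fell in all 5 lines, and the lactate and pyruvate transporter Slc16a1 rose in all 5. Of the 9 genes from aldolase to pyruvate kinase, Aldoa was called in 3 lines and the others in 2 at most. In ALK7 cells 2 genes rose and 13 fell of the 34 tested, 44.1% of them, where 25.3% of all genes tested were called, 13% higher and 12.3% lower (edgeR quasi-likelihood test, adjusted p under 0.05, as in every call below). In ALK7-DN cells 2 rose and 5 fell, 20.6%, against 16.1% of all genes, 8.48% higher and 7.62% lower. In sh2 cells 2 rose and 14 fell, 47.1%, against 19.6% of all genes, 10.7% higher and 8.91% lower. In sh1/2 cells 6 rose and 9 fell, 44.1%, against 36.6% of all genes, 17.5% higher and 19.1% lower. In control cells 2 rose and 6 fell, 23.5%, against 20.3% of all genes, 10.7% higher and 9.66% lower. The shares in the ALK7-DN and control lines were thus near the background. With a correction for GC content the split in ALK7-DN cells was 5 higher and 7 lower, and in sh1/2 cells 4 higher and 10 lower. The shares of all genes given above are from the fit without this correction, so they are no background for these counts.

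The median log2 fold change of the 34 genes was -0.24 in ALK7, -0.06 in ALK7-DN, -0.20 in sh2, -0.01 in sh1/2 and -0.09 in control cells, where the median of all genes lay between -0.01 and 0.00. Called lower in all 5 lines were 3 of the 34, or 8.82%, against 3.54% of all genes tested. Called higher in all 5 was 1, or 2.94%, against 4.33% of all genes. Called lower in 3 or more lines were 6, with Fbp1, Aldoa and Pcx added, against 7.97% of all genes, and higher in 3 or more were 2, with G6pc2 added, against 9%. Another 6 genes, Hk2, Gapdh, Eno1, Pkm, Ldhb and Mpc2, were called in no line. Gapdh had a median coefficient of variation within groups of 33.2%. Only Tpi1 was called in both directions, lower in sh2 and higher in sh1/2 cells. Apart from the granule gene Chga, every beta cell marker called in ALK7-DN, sh2, sh1/2 and control cells was lower with activin B. Of 10, 2 were higher and 4 lower with activin B in ALK7, 1 and 3 in ALK7-DN, 1 and 4 in sh2, 1 and 1 in sh1/2 and 1 and 5 in control cells, to be read against the shares of all genes called in each line given above. Chga, which encodes the secretory granule protein chromogranin A, rose in all 5 lines, by 0.64 ± 0.11 in ALK7 (adjusted p = 0.0001, edgeR), 0.53 ± 0.11 in ALK7-DN (0.00137), 0.37 ± 0.11 in sh2 (0.0205), 0.89 ± 0.11 in sh1/2 (2.03e-06) and 0.50 ± 0.11 in control cells (0.00209). Pdx1, a beta cell transcription factor, fell in all 5, by 0.44 in ALK7, 0.45 in ALK7-DN, 0.35 in sh2, 0.22 in sh1/2 and 0.48 in control cells. The insulin gene Ins1 changed by -0.70 ± 0.11 in ALK7 (adjusted p = 1.96e-05, edgeR) and -0.70 ± 0.11 in control cells (2.60e-05). It changed by -0.67 ± 0.11 in ALK7-DN (5.67e-05) and -0.65 ± 0.11 in sh2 cells (7.14e-05), and was not called in sh1/2 cells. Of the 5 markers of other cell types that were tested, Alb was higher in all 5 lines, by 0.61, 1.12, 1.08, 0.52 and 1.00 in the same order, and no other was called; Pecam1, of endothelial cells, had the next smallest p in control cells (0.50 ± 0.53, adjusted p = 0.578). The part of these markers in the responses was not tested. In such bulk samples fewer cells of a type and less RNA per cell cannot be told apart.

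**Figure D1:**
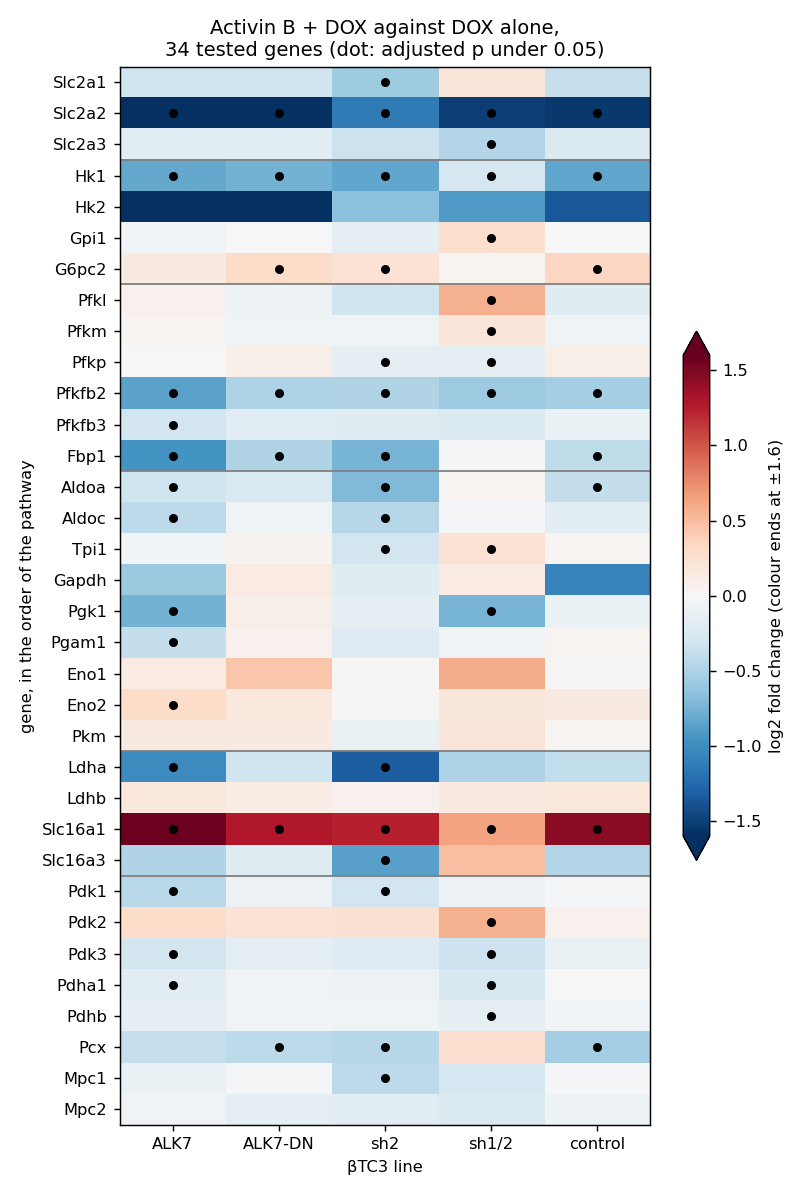
Log2 fold change of activin B + DOX against DOX alone for the 34 tested genes (rows, in the order of the pathway, grey lines between roles) in the 5 lines (columns). Dots mark adjusted p under 0.05 in the edgeR quasi-likelihood test. The rows of Slc2a2, Hk1 and Pfkfb2 are blue with a dot in every line, and the row of Slc16a1 is red with a dot in every line.

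Of the transporters that bring glucose in, Slc2a2 (chromosome 3, 28697903 to 28731359, plus strand, mm10, protein-coding) encodes GLUT2, the high-capacity transporter of rodent beta cells. It was expressed at a low level and fell further with activin B. ALK7 cells had 0.892, 0.835 and 1.34 CPM with activin B, against 4.46, 5.32 and 4.17 CPM with DOX alone. ALK7-DN cells had 1.62, 1.61 and 2.03 CPM with activin B, against 6.06, 5.61 and 5.35 CPM with DOX alone. Within each of these lines all 3 libraries with activin B lay below all 3 without it. The sh2 cells had 1.04, 1.17 and 0.695 CPM with activin B, against 2.61, 1.94 and 1.80 CPM with DOX alone. The sh1/2 cells had 1.66, 1.31 and 1.58 CPM with activin B, against 4.52, 3.80 and 4.60 CPM with DOX alone. Control cells had 1.13, 1.67 and 1.13 CPM with activin B, against 4.23, 3.45 and 3.72 CPM with DOX alone. The groups did not overlap in these lines either, and sh2 cells had the lowest level with DOX alone, in the libraries of batch 2.

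The log2 fold change of Slc2a2 was -2.19 ± 0.20 in ALK7 (SE, adjusted p = 3.51e-09, edgeR), -1.69 ± 0.18 in ALK7-DN (1.57e-07), -1.13 ± 0.21 in sh2 (0.000218), -1.50 ± 0.19 in sh1/2 (1.58e-06) and -1.54 ± 0.19 in control cells (1.29e-06). These calls rest on 19 to 196 counts per library, and they held under every alternative that was run. The difference from the control response was not called for Slc2a2 in ALK7 (-0.65 ± 0.28, adjusted p = 0.479) or sh1/2 cells (0.04 ± 0.27, 0.933).

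Slc2a1, which encodes the widely expressed GLUT1, held most of the level per unit of length among the 3 glucose transporters of the set. It made up 87.4% ± 2.57 (SD, n = 3) of the summed RPKM (CPM per kilobase of exon) of Slc2a1, Slc2a2 and Slc2a3 in ALK7 cells with activin B, against 81.7% ± 1.45 with DOX alone. The same share was 85.7% ± 3.65 against 82.9% ± 0.385 in control cells. The share of Slc2a2 was 3.97% ± 0.518 with activin B against 11.5% ± 2.30 with DOX alone in sh1/2 cells, and 4.11% ± 1.72 against 8.39% ± 0.184 in control cells. Outside the set, the fructose transporter gene Slc2a5 stood higher than Slc2a1, at 102 ± 13.9 RPKM with activin B in control cells, where Slc2a1 stood at 5.02 ± 1.10 RPKM (SD, n = 3 each). In sh2 cells the share of Slc2a2 was 2.79% ± 0.606 with activin B against 4.11% ± 0.405 with DOX alone. Slc2a1 itself fell in sh2 cells (-0.57 ± 0.14, adjusted p = 0.00495, edgeR), and in the other 4 lines its fold changes lay between -0.37 and 0.20 and were not called. Slc2a3, which encodes the high-affinity GLUT3, fell in sh1/2 cells (-0.47 ± 0.13, adjusted p = 0.00816), a call that ended without sh1/2 DOX replicate 1 (-0.41, adjusted p = 0.0530).

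Hexokinase 1, Hk1 (chromosome 10, 62268855 to 62379908, minus strand, protein-coding), phosphorylates glucose with high affinity and is bound to mitochondria. ALK7 cells had 51.5, 47.1 and 42.8 CPM with activin B, against 88.6, 78.1 and 82.4 CPM with DOX alone. ALK7-DN cells had 53.3, 45.1 and 45.8 CPM with activin B, against 86.8, 76.7 and 80.7 CPM with DOX alone. In both lines the groups stood well apart. The sh2 cells had 38.5, 37.1 and 40.3 CPM with activin B, against 73.3, 64.9 and 68.7 CPM with DOX alone. Control cells had 48.7, 37.1 and 49.3 CPM with activin B, against 84.5, 73.0 and 82.6 CPM with DOX alone. The sh1/2 cells had 41.6, 40.9 and 42.0 CPM with activin B, against 44.7, 56.8 and 49.0 CPM with DOX alone. In sh1/2 cells the level with DOX alone was already low and the groups lay close without overlapping.

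Hk1 changed by -0.82 ± 0.10 on the log2 scale in ALK7 (adjusted p = 5.70e-07, edgeR), -0.76 ± 0.10 in ALK7-DN (2.63e-06), -0.84 ± 0.10 in sh2 (6.41e-07) and -0.83 ± 0.10 in control cells (6.27e-07). The change in sh1/2 cells was -0.27 ± 0.10 (adjusted p = 0.0352). That call ended without sh1/2 DOX replicate 2 (-0.17, adjusted p = 0.172), without DOX replicate 3 (-0.29, 0.0733) and without each of the 3 activin B libraries. Corrected for GC content it was -0.57 (2.50e-07), and without the 3 GC-poor libraries -0.45 (0.00600).

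Hk2, a second high-affinity hexokinase, was close to undetected, at 0 to 0.695 CPM in any library. Its fold changes lay between -2.62 and -0.66 with standard errors up to 0.99, and none was called. Hk1 made up 98.1% to 99.9% of the summed RPKM of both genes in every group. Gpi1, which turns glucose 6-phosphate into fructose 6-phosphate, rose in sh1/2 cells by 0.27 ± 0.07 (adjusted p = 0.00594), a call that ended without sh1/2 DOX replicate 1 (0.20, adjusted p = 0.0629). In the other lines it lay between -0.14 and 0.01.

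G6pc2, an islet glucose-6-phosphatase that returns glucose 6-phosphate to glucose, had the highest level per length of the set, 978 RPKM averaged over all libraries. It stood at 2166, 2433 and 2396 CPM with activin B in ALK7-DN cells, against 1786, 1983 and 1955 CPM with DOX alone. In control cells it stood at 2219, 2513 and 2293 CPM with activin B, against 1773, 1971 and 1835 CPM with DOX alone. These groups did not overlap, and G6pc2 rose by 0.29 ± 0.06 in ALK7-DN (adjusted p = 0.00173, edgeR), 0.23 ± 0.06 in sh2 (0.0115) and 0.33 ± 0.06 in control cells (0.000331). The sh2 call ended without sh2 activin B replicate 2 (adjusted p = 0.0642). The changes in ALK7 (0.15 ± 0.06, adjusted p = 0.0900) and sh1/2 cells (0.05 ± 0.06, 0.580) were not called. With the replicate block, which pairs the ALK7 libraries, the ALK7 change was called at the same size (adjusted p = 0.0264), and with the GC correction G6pc2 was called in ALK7 (0.19, adjusted p = 0.000247) and in sh1/2 cells (0.21, 0.000160).

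**Figure D2:**
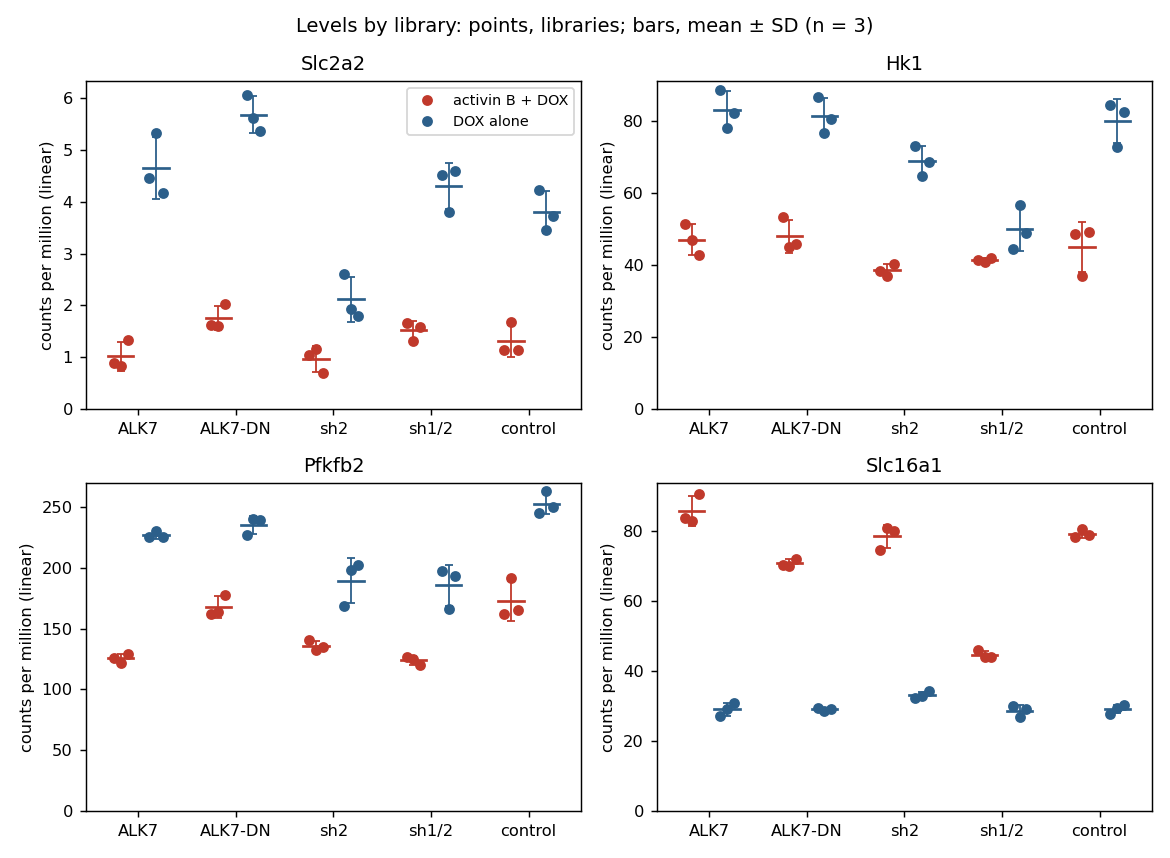
TMM-scaled CPM of Slc2a2, Hk1, Pfkfb2 and Slc16a1 in every library (points), with the mean and SD of each group (n = 3), activin B + DOX left of DOX alone in each line. All axes are linear and start at 0. Slc16a1 with activin B lies between 69.9 and 90.6 CPM in 4 lines and between 43.9 and 46.0 CPM in sh1/2 cells, against 26.9 to 34.2 CPM with DOX alone.

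At the phosphofructokinase step, Pfkfb2 (chromosome 1, 130689182 to 130729253, minus strand, protein-coding) makes and removes fructose 2,6-bisphosphate, the strongest activator of phosphofructokinase. ALK7 cells had 126, 122 and 129 CPM with activin B, against 225, 231 and 225 CPM with DOX alone. ALK7-DN cells had 162, 164 and 178 CPM with activin B, against 227, 240.1 and 239.7 CPM with DOX alone. The gap was widest in ALK7 cells. The sh2 cells had 140.4, 132 and 135 CPM with activin B, against 168, 198 and 202 CPM with DOX alone. The sh1/2 cells had 127, 125 and 119.9 CPM with activin B, against 197, 166 and 193 CPM with DOX alone. Control cells had 162, 192 and 165 CPM with activin B, against 246, 263 and 250.5 CPM with DOX alone. No group with activin B overlapped its own group with DOX alone.

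The log2 fold change of Pfkfb2 was -0.85 ± 0.07 in ALK7 (adjusted p = 5.92e-10, edgeR), -0.49 ± 0.07 in ALK7-DN (8.53e-06), -0.48 ± 0.07 in sh2 (9.74e-06), -0.58 ± 0.07 in sh1/2 (6.65e-07) and -0.55 ± 0.07 in control cells (1.23e-06). Each call held under every alternative that was run. Pfkfb3, the isoenzyme that mostly makes fructose 2,6-bisphosphate, fell in ALK7 cells (-0.30 ± 0.10, adjusted p = 0.0217). That call ended without ALK7 DOX replicates 1 or 2 and without ALK7 activin B replicates 1 or 2, with adjusted p between 0.0515 and 0.133.

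Fbp1, a fructose bisphosphatase that runs this step backwards, fell in 4 lines. It stood at 7.84, 9.05 and 9.55 CPM with activin B in ALK7 cells, against 17.3, 17.6 and 16.6 CPM with DOX alone. In sh2 cells it stood at 6.32, 6.11 and 5.38 CPM, against 11.3, 10.2 and 8.09 CPM with DOX alone. The change was -0.96 ± 0.10 in ALK7 (adjusted p = 7.49e-08, edgeR), -0.48 ± 0.10 in ALK7-DN (0.00156), -0.74 ± 0.11 in sh2 (1.10e-05) and -0.40 ± 0.11 in control cells (0.00747). The control call ended when the control groups were fitted alone (adjusted p = 0.0586). In sh1/2 cells it was -0.01 ± 0.11 (0.937), with 7.44 to 8.84 CPM with activin B and 7.81 to 8.40 CPM with DOX alone.

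Of the 3 phosphofructokinase subunits, none was called in ALK7, ALK7-DN or control cells. In sh1/2 cells Pfkl, the liver-type subunit, rose by 0.57 ± 0.16 (adjusted p = 0.0101), Pfkm, the muscle type, by 0.20 ± 0.07 (0.0431), and Pfkp, the platelet type, fell by 0.14 ± 0.05 (0.0378). Without sh1/2 DOX replicate 1 the Pfkl change was 0.43 (adjusted p = 0.0837) and the Pfkm change 0.14 (0.225). Without sh1/2 DOX replicate 3 they were 0.45 (0.0797) and 0.16 (0.191), and the Pfkp change was -0.10 (0.216). The Pfkm call also ended without sh1/2 activin B replicates 2 or 3, and turned to -0.02 with the GC correction, and the Pfkp call ended without DOX replicate 2 or any activin B library. Pfkp also fell in sh2 cells (-0.15 ± 0.05, adjusted p = 0.0491), a call that ended without any 1 of the 6 sh2 libraries.

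The enzymes from aldolase to pyruvate kinase split fructose bisphosphate and harvest ATP and NADH. Of the 9 genes here, Aldoa, Gapdh and Pgk1 share near-identical copies and are uncertain, and counted copies were also found for Eno1 and Pgam1. Counts on the copy Aldoart1 came to 2.66% of those on Aldoa, counts on Pgam1-ps2 to 13.3% of those on Pgam1, and counts on Gm5506 to 4.55% to 40.7% of those on Eno1 by library. How reads that match several places were counted is not given in the sources used here.

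Aldolase C, Aldoc, fell in ALK7 (-0.42 ± 0.09, adjusted p = 0.000466, edgeR) and sh2 cells (-0.46 ± 0.09, 0.000240). It had 26.9, 29.5 and 28.7 CPM with activin B in ALK7 cells, against 40.1, 38.9 and 35.2 CPM with DOX alone. Aldolase A, Aldoa (uncertain), fell in ALK7 (-0.31 ± 0.10, 0.0242), sh2 (-0.71 ± 0.10, 1.07e-05) and control cells (-0.38 ± 0.10, 0.00842). The ALK7 call ended without ALK7 DOX replicates 1 or 2 or ALK7 activin B replicates 1 or 3, with changes between -0.32 and -0.27. The control call ended without control activin B replicate 2 (-0.28, adjusted p = 0.0718) and without control DOX replicate 1 (-0.32, 0.0548). It also ended when the control groups were fitted alone (adjusted p = 0.0660). Aldoa was not called in ALK7-DN (-0.24 ± 0.10, 0.128) or sh1/2 cells (0.05 ± 0.10, 0.750). The ALK7-DN change was called with the replicate block, which pairs these libraries (-0.24, adjusted p = 0.0110), and with the GC correction (-0.17, 0.00452). With a batch term estimated from the hairpin lines it was -0.99 (adjusted p = 0.000279, edgeR). That term takes sh2 and sh1/2 cells to respond alike to activin B. Their Aldoa changes were -0.71 and 0.05, so the value of -0.99 cannot be read as a corrected response.

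Pgk1 (uncertain), the first ATP-yielding kinase of the pathway, fell in ALK7 (-0.75 ± 0.25, adjusted p = 0.0271, edgeR) and sh1/2 cells (-0.75 ± 0.25, 0.0233). In sh1/2 cells it stood at 328, 236 and 214 CPM with activin B, against 509, 285 and 512 CPM with DOX alone, so the groups overlapped. The sh1/2 call ended without sh1/2 DOX replicates 1 or 3 or sh1/2 activin B replicates 2 or 3, and the ALK7 call without ALK7 DOX replicate 2 or ALK7 activin B replicates 2 or 3, with adjusted p between 0.0715 and 0.121. Pgam1, the mutase, fell in ALK7 cells (-0.38 ± 0.09, 0.00283). Eno2, the neuronal and endocrine enolase, rose in ALK7 cells (0.29 ± 0.09, 0.0153), a call that ended without ALK7 DOX replicate 3 (0.22, adjusted p = 0.118) and without ALK7 activin B replicates 1 or 2. Tpi1, triose phosphate isomerase, fell in sh2 (-0.29 ± 0.07, 0.00345) and rose in sh1/2 cells (0.23 ± 0.07, 0.0129), where the call ended without sh1/2 DOX replicates 1 or 3 and with the GC correction (0.07, adjusted p = 0.335). Pkm, the muscle pyruvate kinase and the second highest gene of the set per length, changed by -0.10 to 0.20 across lines and was not called in any.

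At the exit to lactate, Slc16a1 (chromosome 3, 104638668 to 104658462, plus strand, protein-coding) encodes MCT1, which moves lactate and pyruvate across the plasma membrane. ALK7 cells had 83.8, 82.9 and 90.6 CPM with activin B, against 27.0, 29.2 and 30.8 CPM with DOX alone. ALK7-DN cells had 70.4, 69.9 and 72.1 CPM with activin B, against 29.5, 28.6 and 29.1 CPM with DOX alone. Every library with activin B lay above every library without it. The sh2 cells had 74.7, 80.9 and 79.9 CPM with activin B, against 32.3, 32.8 and 34.2 CPM with DOX alone. The sh1/2 cells had 46.0, 43.9 and 43.9 CPM with activin B, against 29.97, 26.9 and 29.2 CPM with DOX alone. Control cells had 78.3, 80.6 and 79.0 CPM with activin B, against 27.7, 29.5 and 30.1 CPM with DOX alone. With DOX alone the sh2 libraries, of batch 2, lay highest, and with activin B the sh1/2 libraries lay below those of all other lines.

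Slc16a1 rose by 1.56 ± 0.05 in ALK7 (adjusted p = 4.99e-17, edgeR), 1.28 ± 0.05 in ALK7-DN (3.34e-15), 1.25 ± 0.05 in sh2 (4.24e-15), 0.64 ± 0.05 in sh1/2 (1.52e-09) and 1.44 ± 0.05 in control cells (3.15e-16). Every one of these calls held under every alternative that was run. Slc16a3, which encodes MCT4, the exporter typical of highly glycolytic cells, fell in sh2 cells (-0.87 ± 0.21, adjusted p = 0.00363). It was not called in ALK7 (-0.49 ± 0.21), ALK7-DN (-0.20 ± 0.21), sh1/2 (0.48 ± 0.21) or control cells (-0.47 ± 0.22). Per unit of length Slc16a1 made up 87.4% ± 2.82 of the sum of both transporters with activin B in ALK7 cells, against 63.0% ± 7.57 with DOX alone. Its share was 87.2% ± 2.70 against 71.1% ± 3.14 in ALK7-DN cells and 83.7% ± 2.93 against 54.3% ± 3.54 in sh2 cells. In control cells it was 89.1% ± 0.720 against 68.4% ± 5.23. The groups did not overlap in these 4 lines, whereas in sh1/2 cells the shares were 73.4% ± 0.783 with activin B and 71.5% ± 6.32 with DOX alone, and overlapped.

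Lactate dehydrogenase A, Ldha (uncertain, with counts on Ldha-ps2 at 4.71% of its own), favours lactate, and Ldhb favours pyruvate. Ldha had 19.3, 30.3 and 27.4 CPM with activin B in ALK7 cells, against 64.2, 59.9 and 32.5 CPM with DOX alone. In sh2 cells it had 52.1, 33.9 and 32.1 CPM with activin B, against 115, 72.7 and 106 CPM with DOX alone. Replicates of Ldha differed widely, and the sh2 line stood above the others in both conditions. Ldha fell by 1.02 ± 0.22 in ALK7 (adjusted p = 0.000787, edgeR) and by 1.31 ± 0.22 in sh2 cells (5.66e-05). In ALK7-DN (-0.31 ± 0.22, 0.423), sh1/2 (-0.50 ± 0.22, 0.0778) and control cells (-0.39 ± 0.22, 0.238) it was not called. With the batch term from the hairpin lines the ALK7-DN change was -1.13 (adjusted p = 0.0320, edgeR). That term takes sh2 and sh1/2 cells to respond alike, whereas their Ldha changes were -1.31 and -0.50, so it decides nothing here. Ldhb changed by 0.06 to 0.17 and was not called in any line. The share of Ldha in the summed RPKM of both was 44.9% ± 3.39 with activin B in ALK7 cells, against 64.2% ± 7.81 with DOX alone, and 41.1% ± 3.92 against 50.5% ± 2.08 in control cells. It was lower with activin B in all 3 libraries than in any library with DOX alone in each line.

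**Figure D3:**
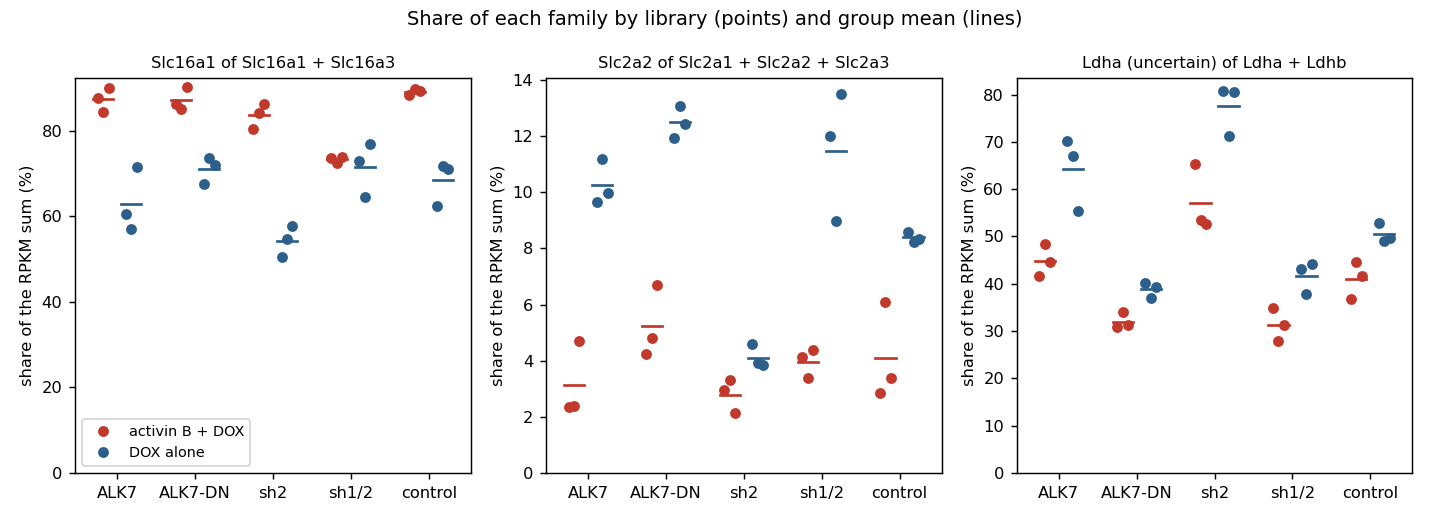
Share (%) of Slc16a1, Slc2a2 and Ldha in the summed RPKM of their families, by library (points) and group mean (lines), activin B + DOX left of DOX alone in each line. The Slc16a1 share with activin B lies between 80.5% and 90.3% in 4 lines and at 72.5% to 74.0% in sh1/2 cells, where it overlaps the libraries with DOX alone. Ldha counts are uncertain because of a near-identical copy.

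In the mitochondrion, pyruvate enters through the carrier formed by MPC1 and MPC2 and is either oxidised by pyruvate dehydrogenase, which the PDK kinases inhibit, or carboxylated by pyruvate carboxylase, Pcx. Pcx, whose product feeds oxaloacetate to the citric acid cycle of beta cells, fell in ALK7-DN (-0.42 ± 0.14, adjusted p = 0.0483, edgeR), sh2 (-0.45 ± 0.14, 0.0271) and control cells (-0.54 ± 0.14, 0.00775). It was not called in ALK7 (-0.37 ± 0.14, 0.0653) or sh1/2 cells (0.26 ± 0.14, 0.151). With the replicate block, which pairs the libraries of both lines, it was called lower in ALK7 (-0.37, adjusted p = 0.00529) and higher in sh1/2 cells (0.29, 0.0177). The ALK7 change was also called with the GC correction (-0.56, 1.30e-08), by DESeq2 (-0.37, 0.0431) and when the ALK7 groups were fitted alone (-0.36, 0.00668). The sh1/2 change was -0.07 with the GC correction and 0.47 without sh1/2 DOX replicate 2 (adjusted p = 0.00766). The control call ended without control activin B replicate 2 (-0.36, adjusted p = 0.0673) and when the control groups were fitted alone (0.102). The ALK7-DN call ended without any 1 of 5 of its 6 libraries, activin B replicate 1 being the exception, and the sh2 call without sh2 DOX replicates 1 or 2 or sh2 activin B replicates 2 or 3.

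Among the kinases, Pdk1 fell in ALK7 (-0.44 ± 0.10, adjusted p = 0.00203, edgeR) and sh2 cells (-0.31 ± 0.10, 0.0332), and Pdk3 fell in ALK7 (-0.30 ± 0.08, 0.00540) and sh1/2 cells (-0.33 ± 0.08, 0.00280). Pdk2 rose in sh1/2 cells (0.57 ± 0.13, 0.00201) and lay between 0.07 and 0.30 in the other lines. Corrected for GC content, the sh1/2 change of Pdk2 was 0.27 (adjusted p = 0.0679). The sh2 call of Pdk1 ended without sh2 DOX replicates 1 or 3 or sh2 activin B replicates 2 or 3. The catalytic subunit gene Pdha1 fell in ALK7 (-0.19 ± 0.06, 0.0360) and sh1/2 cells (-0.26 ± 0.06, 0.00421), and Pdhb in sh1/2 cells (-0.16 ± 0.06, 0.0415). The ALK7 call of Pdha1 ended without ALK7 DOX replicates 2 or 3 or ALK7 activin B replicates 1 or 2, and the Pdhb call without any 1 sh1/2 library except DOX replicate 2. Mpc1, which has counts on a copy, Mpc1-ps, at 46.9% of its own, fell in sh2 cells (-0.41 ± 0.13, 0.0248). That call ended without sh2 DOX replicate 1 (-0.28, adjusted p = 0.200) and without sh2 activin B replicates 1 or 3. Mpc2 was not called in any line.

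The next comparison asked whether a line changed the response itself, tested as an interaction term against control cells. For sh1/2 minus control cells, 5 of the 34 genes were called higher and 3 lower, 23.5% against 17.7% of all genes tested, 8.49% higher and 9.22% lower. Slc16a1 rose less in sh1/2 cells, by a difference of -0.81 ± 0.07 on the log2 scale (adjusted p = 4.70e-07, edgeR). This was the one difference that was called under every alternative run, with values between -0.85 and -0.55, and it was -0.56 with the GC correction. Hk1 fell less in sh1/2 than in control cells (difference 0.55 ± 0.14, adjusted p = 0.0223). Pfkl (0.77 ± 0.23, 0.0361), Aldoa (uncertain, 0.43 ± 0.14, 0.0451), Slc16a3 (0.95 ± 0.30, 0.0392) and Pcx (0.81 ± 0.20, 0.0215) also had a more positive response in sh1/2 cells. Pfkp (-0.24 ± 0.07, 0.0382) and G6pc2 (-0.29 ± 0.09, 0.0389) had a more negative one.

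Leaving out 1 library changed how many of the 34 genes differed in response. The count of 8 became 1 without control DOX replicate 1, control activin B replicate 2 or sh1/2 DOX replicate 3, and 2 without sh1/2 DOX replicate 1. It became 3 without control DOX replicate 3 or sh1/2 activin B replicates 2 or 3, 14 without control activin B replicate 1 and 17 without sh1/2 DOX replicate 2. Responses over all genes followed GC content with a Spearman's rho of 0.59 in sh1/2 cells, against -0.23 in control cells. With the GC correction 4 genes differed, 2 higher and 2 lower, and rho of the sh1/2 response was 0.005. Without the 3 GC-poor libraries 1 gene differed, Slc16a1, with a lone sh1/2 library with DOX alone. Of the 10 beta cell markers, 4 had a more positive response in sh1/2 than in control cells and 0 a more negative one, and of the 5 other-cell markers tested 0 differed; their part was not tested. With the GC correction Pfkl and Pcx differed by 0.38 and 0.36, and Hk1 by 0.18 (adjusted p = 0.245, edgeR). In sh1/2 cells 15 genes were called without the correction, 8 without sh1/2 DOX replicate 1 and 8 without replicate 3. Without the 3 GC-poor libraries 1 was higher (Slc16a1) and 3 lower (Slc2a2, Hk1 and Pfkfb2), again with a lone library with DOX alone. With only the sh1/2 groups fitted, 2 were higher and 3 lower. With replicate numbers as a block, which pair the libraries of this line, 23 were called, 11 higher and 12 lower, among them Pcx.

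**Figure D4:**
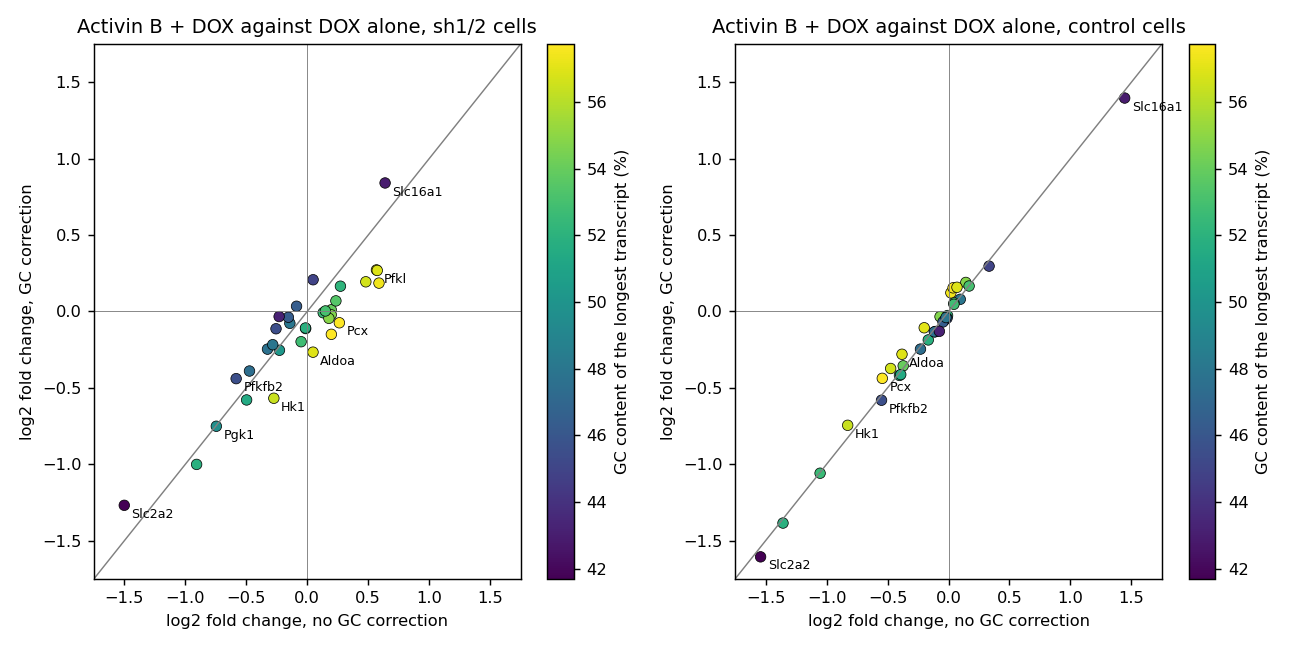
Log2 fold change of activin B + DOX against DOX alone with a correction for GC content (vertical) and without it (horizontal) for the 34 tested genes, in sh1/2 cells (left) and control cells (right), coloured by GC content (%). On the left GC-rich genes such as Pfkl and Aldoa move down by the correction, Aldoa to -0.27, and Slc16a1 moves up to 0.84. On the right most genes stay near the diagonal.

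For ALK7 minus control cells, 0 of the 34 genes were called (edgeR), and 0 were called by DESeq2, against 0.0256% of all genes tested by edgeR, 0.0192% higher and 0.0064% lower. At an unadjusted p under 0.05 there were 6 (edgeR). The shares above are for adjusted calls and are no background for that number, so it shows no excess. With the replicate block the count was 1. The interactions of ALK7-DN and sh2 cells were not tested, because batch coincides with one of their arms.

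Lines were then compared without activin B. In sh1/2 cells with DOX alone, 3 of the 34 genes were higher and 17 lower than in control cells, 58.8% against 38.0% of all genes tested, 19.4% higher and 18.6% lower. The median log2 difference of the 34 was -0.31, and that of all genes was 0.00. Lower genes spanned the pathway, from Hk1 (-0.67 ± 0.10, adjusted p = 9.95e-06, edgeR) and G6pc2 (-0.49 ± 0.06, 1.41e-06) to Pfkl (-0.64 ± 0.16, 0.00330), Aldoc (-0.89 ± 0.09, 2.28e-08), Aldoa (uncertain, -0.70 ± 0.10, 8.26e-06), Tpi1 (-0.47 ± 0.07, 1.19e-05), Eno2 (-0.59 ± 0.09, 1.36e-05) and Eno1 (-0.99 ± 0.29, 0.00926). The Eno1 call ended with the GC correction (-0.69, adjusted p = 0.0897). Eno1 has a counted copy, Gm5506, at 9.11, 28.3 and 7.59 CPM in these sh1/2 libraries, against 31.2, 20.2 and 24.0 CPM in control cells. The part of this copy in the Eno1 difference was not tested. Gpi1 (-0.32 ± 0.07), Pfkm (-0.34 ± 0.07), Pfkp (-0.31 ± 0.05) and Pfkfb2 (-0.45 ± 0.07) were also lower.

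In the mitochondrial group, Pcx (-0.67 ± 0.14, adjusted p = 0.000718, edgeR), Mpc1 (-0.59 ± 0.13, 0.000996), Pdk1 (-0.42 ± 0.10, 0.00286), Pdk2 (-0.53 ± 0.13, 0.00299) and Pdhb (-0.22 ± 0.06, 0.00516) were lower in sh1/2 than in control cells. Higher were Pfkfb3 (0.84 ± 0.10, 2.17e-07), Ldhb (0.26 ± 0.09, 0.0245) and Pdk3 (0.24 ± 0.08, 0.0184). Pfkfb3 stood at 27.7, 23.2 and 27.9 CPM in sh1/2 cells, against 15.2, 14.2 and 14.5 CPM in control cells. Pdk3 ended as a call without sh1/2 DOX replicates 1 or 3 or control DOX replicate 3, and Ldhb without sh1/2 DOX replicates 2 or 3 or control DOX replicate 3. Slc2a2 (0.18 ± 0.18, 0.459) and Slc16a1 (-0.02 ± 0.05, 0.773) were not called. The hairpin and control lines differ in plasmid backbone as well as in the hairpins, and the 2 cannot be told apart. Under the GC correction 3 genes were higher and 19 lower. Without the 3 GC-poor libraries, with 1 sh1/2 library against the 3 control libraries, 2 were higher and 12 lower, and the calls of Gpi1 (-0.14, adjusted p = 0.0799), Pfkl (-0.20, 0.388), Pfkm (-0.16, 0.0564), Pdk2 (-0.32, 0.201), Pdk3 (0.02, 0.929) and Pcx (-0.34, 0.0711) ended. With only the groups compared, 2 were higher and 11 lower, and the calls of Gpi1, Pfkl, Pfkm, Ldhb, Pdk1, Pdk2, Pdk3 and Pdhb ended, with adjusted p between 0.0515 and 0.154.

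Markers of cell types also differed between these lines with DOX alone. Of the 10 beta cell markers 1 was higher and 6 lower in sh1/2 cells, among them Iapp, the islet amyloid gene (-0.70 ± 0.07, adjusted p = 4.33e-08, edgeR), and Pdx1 (-0.27 ± 0.05, 0.000223), and their sum was 12428 to 17830 CPM in sh1/2 cells, against 21244 to 22389 CPM in control cells. Of the 5 tested markers of other cells 2 were higher and 0 lower, Alb (1.47 ± 0.13, 3.48e-09) and the macrophage marker Cd68 (0.62 ± 0.18, 0.00823). The 12 markers of that list summed to 15.1 to 16.2 CPM in sh1/2 cells, against 6.54 to 9.26 CPM in control cells, and Cpa1, of acinar cells, was at 0 in both groups. The part of these markers in the lower levels of the 17 genes was not tested.

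In ALK7 cells with DOX alone, 3 genes were higher than in control cells and 0 lower, 8.82% against 1.98% of all genes tested, 1.03% higher and 0.953% lower. Fbp1 had 17.3, 17.6 and 16.6 CPM in ALK7 cells, against 8.99, 10.2 and 9.04 CPM in control cells, a difference of 0.87 ± 0.10 (adjusted p = 1.71e-05, edgeR) that held under every alternative run. Pdk1 (0.44 ± 0.10, 0.0225) and Pgam1 (0.35 ± 0.09, 0.0463) were the others, and both ended as calls without control DOX replicate 1 or 3 or ALK7 DOX replicate 1, which left 1 gene called, as did a fit of only the groups compared. Pgam1 also ended without control DOX replicate 2 or ALK7 DOX replicate 3, and Pdk1 without ALK7 DOX replicate 2. With the GC correction 4 genes were higher and 1 lower. In ALK7-DN cells with DOX alone only Fbp1 was called, 0.43 ± 0.10 (0.0467), 2.94% of the 34 against 0.966% of all genes, 0.378% higher and 0.589% lower. It had 11.4, 13.1 and 13.5 CPM in ALK7-DN cells, and 0 genes were called without any 1 of the 3 control DOX libraries or without ALK7-DN DOX replicates 2 or 3. Under DESeq2 the count was 1, and with the GC correction 1 was higher and 1 lower.

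With activin B, 4 of the 34 genes were higher and 12 lower in sh1/2 than in control cells, 47.1% against 35.2% of all genes tested, 16.9% higher and 18.3% lower. The largest decreases were in Mpc1 (-0.85 ± 0.13, adjusted p = 1.52e-05, edgeR), Slc16a1 (-0.83 ± 0.05, 8.23e-12), G6pc2 (-0.78 ± 0.06, 8.60e-10) and Aldoc (-0.74 ± 0.09, 3.17e-07). Eno2 (-0.56 ± 0.09), Pfkp (-0.55 ± 0.05), Pfkfb2 (-0.48 ± 0.07), Pdk1 (-0.48 ± 0.10), Pdhb (-0.33 ± 0.06), Pdha1 (-0.30 ± 0.06), Tpi1 (-0.28 ± 0.07) and Aldoa (uncertain, -0.28 ± 0.10) were lower too. G6pc2 stood at 1407, 1386 and 1302 CPM in sh1/2 cells with activin B, against 2219, 2513 and 2293 CPM in control cells. Pfkfb3 (0.72 ± 0.10, 2.01e-06), Slc16a3 (0.74 ± 0.21, 0.00865), Ldhb (0.24 ± 0.09, 0.0365) and Hk2 (1.62 ± 0.63, 0.0484) were higher. Hk2 had 0.618, 0.279 and 0.202 CPM in sh1/2 cells, against 0.116, 0 and 0.212 CPM in control cells, and its call ended without control activin B replicates 1 or 2 or sh1/2 activin B replicates 1 or 2. Aldoa ended as a call without control activin B replicates 1 or 3 or any sh1/2 activin B library. Ldhb ended without control activin B replicates 2 or 3 or sh1/2 activin B replicates 1 or 2. Without the 3 GC-poor libraries, of which only control replicate 2 is in this comparison, 2 genes were higher and 15 lower, and the calls of Hk2 (1.16, adjusted p = 0.191) and Ldhb (0.18, 0.136) ended. With only the groups compared those of Aldoa (0.0597) and Ldhb (0.114) ended. Of the 10 beta cell markers 2 were higher and 2 lower, with Iapp at -0.88 ± 0.07 (7.88e-10) and Slc30a8, a zinc transporter of insulin granules, at -0.21 ± 0.05 (0.00173). Of the 5 tested markers of other cells 3 were higher, Alb (0.99 ± 0.12, 6.26e-07), Cd68 (0.79 ± 0.17, 0.000831) and the collagen gene Col1a2 (1.12 ± 0.38, 0.0255). The part of these markers was not tested. These values share their libraries with the responses above.

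**Figure D5:**
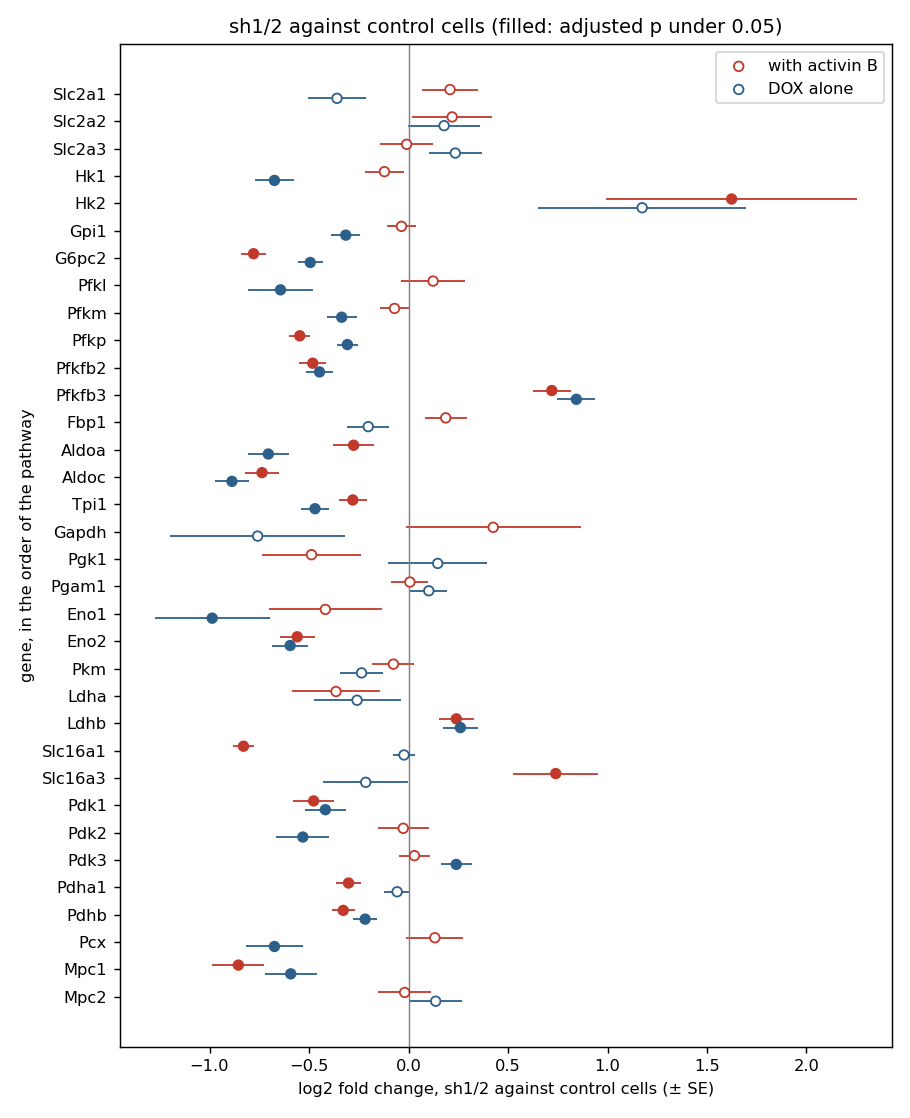
Log2 fold change of sh1/2 against control cells (± SE) for the 34 tested genes, with activin B (red, upper of each pair) and with DOX alone (blue). Filled points have adjusted p under 0.05. Slc16a1 lies at -0.83 with activin B and at -0.02 with DOX alone, while Aldoc, Pfkfb2, Eno2 and Mpc1 are filled and left of 0, and Pfkfb3 filled and right of 0, in both.

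Fewer genes were called for sh2 and ALK7 against control cells with activin B. In sh2 cells 1 gene was higher and 2 lower, 8.82%, near the 9.23% of all genes tested, of which 3.06% were higher and 6.18% lower. Pfkp was lower, at -0.39 ± 0.05 (adjusted p = 1.76e-05, edgeR) and Pfkfb2 at -0.35 ± 0.07 (0.00136), and Ldha (uncertain) was higher by 0.80 ± 0.22 (0.0191), a call that ended without sh2 activin B replicate 1 (0.54, 0.177) and without control activin B replicates 1 or 3. With only the groups compared the calls of Pfkfb2 (-0.35, adjusted p = 0.0648) and Ldha (0.79, 0.0697) ended and that of Pfkp did not, and without the 3 GC-poor libraries 2 genes were higher and 3 lower. Slc16a1 was not called in sh2 against control cells (-0.01 ± 0.05, 0.929). In ALK7 cells 0 were higher and 2 lower, 5.88% against 4.53% of all genes, 2.09% higher and 2.44% lower. Pfkfb2 was lower, at -0.46 ± 0.07 (0.000178) and Aldoc at -0.32 ± 0.09 (0.0268). The Aldoc call ended without control activin B replicates 1 or 3 or any ALK7 activin B library, leaving 4 genes called without control activin B replicate 1 and 1 gene without any of the others. With only the groups compared neither call held (adjusted p = 0.0831 for Pfkfb2 and 0.159 for Aldoc). With the GC correction 1 was higher and 2 lower, and without the 3 GC-poor libraries 0 were higher and 3 lower.

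Other genes of glucose metabolism were counted for comparison. Each count here and in the next paragraphs is to be read against the share of all genes called in that line. That share was 25.3% in ALK7, 16.1% in ALK7-DN, 19.6% in sh2, 36.6% in sh1/2 and 20.3% in control cells. Of 20 tested genes of other glycolytic isoenzymes and transporters, 5 were lower and 3 higher with activin B in ALK7, 5 and 1 in ALK7-DN, 8 and 1 in sh2, 3 and 2 in sh1/2 and 9 and 1 in control cells. Lower in all 5 lines was Hkdc1, a hexokinase-related gene, at 0.733, 0.642 and 0.399 CPM with activin B in ALK7 cells, against 2.45, 2.76 and 2.99 CPM with DOX alone. Its fold change was -2.19 in ALK7, -2.15 in ALK7-DN, -3.12 in sh2, -1.73 in sh1/2 and -3.00 in control cells. Higher in all 5 was Slc2a5, which encodes the fructose transporter GLUT5, by 0.77, 0.84, 0.69, 1.08 and 0.80 in the same order of lines.

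Of 11 tested genes of the NADH and malate shuttles, 1 was higher and 7 lower in ALK7, 1 and 4 in ALK7-DN, 1 and 4 in sh2, 2 and 5 in sh1/2 and 1 and 3 in control cells. Gpd2, the mitochondrial glycerol 3-phosphate dehydrogenase that passes glycolytic electrons to the respiratory chain, fell in all 5 lines. It stood at 192, 172.5 and 184 CPM with activin B in ALK7 cells, against 445, 444 and 459.5 CPM with DOX alone. The fold change was -1.30 ± 0.06 in ALK7 (adjusted p = 1.12e-14, edgeR) and -1.08 ± 0.06 in control cells (4.07e-13). Malic enzyme 1, Me1, which returns malate to pyruvate, rose in all 5 lines, by 1.04 ± 0.09 in ALK7 and 1.00 ± 0.09 in control cells. Slc25a12, an aspartate and glutamate carrier, fell in all 5.

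Of 21 tested genes of the citric acid cycle and the rest of pyruvate dehydrogenase, 1 to 3 were higher and 2 to 5 lower in each line, and Suclg2, a subunit of succinyl-CoA ligase, was the one lower in all 5. Dlst, a subunit of 2-oxoglutarate dehydrogenase, changed by -0.24 ± 0.04 in ALK7 (adjusted p = 1.72e-05, edgeR) and -0.21 ± 0.04 in control cells (0.000115), and was called lower in every line but sh1/2 (-0.07 ± 0.04, 0.126). Idh3a, a subunit of isocitrate dehydrogenase, rose in ALK7-DN (0.26 ± 0.05, 0.000546), sh2 (0.26 ± 0.05, 0.000348) and control cells (0.25 ± 0.05, 0.000537) and was not called in ALK7 (0.12 ± 0.05, 0.0764) or sh1/2 cells (0.06 ± 0.05, 0.353). Of 8 genes of the pentose phosphate pathway, 0 were higher and 2 lower in ALK7, 0 and 1 in ALK7-DN, 0 and 3 in sh2, 3 and 1 in sh1/2 and 1 and 2 in control cells. H6pd, the hexose 6-phosphate dehydrogenase of the endoplasmic reticulum, fell in ALK7 (-0.42 ± 0.10, 0.00305), ALK7-DN (-0.59 ± 0.10, 0.000153), sh2 (-0.50 ± 0.10, 0.000935) and control cells (-0.66 ± 0.10, 3.02e-05), and was at -0.17 ± 0.10 (0.213) in sh1/2 cells. G6pdx, the glucose 6-phosphate dehydrogenase that opens the pathway, rose in control cells (0.18 ± 0.05, 0.0170) and was not called in the other 4 lines. Of 20 regulators, Egln1, an oxygen sensor that marks hypoxia-inducible factors for decay, was higher in all 5 lines, by 0.41 in ALK7 and 0.33 in control cells, and Txnip and Pdx1 were lower in all 5. Of 11 tested hypoxia targets outside glycolysis, 2 were higher and 3 lower in ALK7, 2 and 1 in ALK7-DN, 2 and 3 in sh2, 0 and 1 in sh1/2 and 2 and 1 in control cells. Mxi1, a repressor that dimerises with MAX, rose by 0.47 ± 0.07 in ALK7 (adjusted p = 8.00e-06, edgeR), 0.33 ± 0.07 in ALK7-DN (0.00101), 0.30 ± 0.07 in sh2 (0.00211) and 0.36 ± 0.07 in control cells (0.000282). Kdm3a, a histone demethylase, rose in ALK7-DN (0.24 ± 0.07, 0.0196), sh2 (0.23 ± 0.07, 0.0205) and control cells (0.29 ± 0.07, 0.00337). Neither was called in sh1/2 cells (0.16 ± 0.07, 0.0621 for Mxi1 and -0.06 ± 0.07, 0.509 for Kdm3a), nor was Kdm3a in ALK7 cells (0.11 ± 0.07, 0.295). Among the targets called lower, P4ha1 fell in ALK7 (-0.32 ± 0.07, adjusted p = 0.00168, edgeR) and sh1/2 cells (-0.29 ± 0.07, 0.0037). Vegfa fell in sh2 cells (-0.37 ± 0.08, 0.00087).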

How the data were processed

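RNA-seq libraries (TruSeq stranded mRNA, 500 ng of Trizol RNA, per the labels' protocols) were counted by the authors. The submitters' processing notes name bcl2fastq 2.17, cutadapt 1.4.2, HISAT2, featureCounts 1.4.4, edgeR and the mm10 build. The strand setting, the rule for reads that match several places and the HISAT2 version are not given in the sources used here. The deposited raw counts per gene were used, and the 30 single-library files held the same values as the series table. The authors' normalised log2 table was not used.

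Groups follow the labels. Genes were filtered with filterByExpr, scaled by TMM and fitted with edgeR 4.0.16 (R 4.3.3) as 10 group means over all 30 libraries. Quasi-likelihood F tests of 13 contrasts were adjusted by Benjamini-Hochberg over all 15627 genes tested, and a call is an adjusted p under 0.05. The method was tested on simulated data. Library totals ran from 18904884 to 34740789 counts, which limits the precision of low genes. No replicate pair agreed within sampling noise (lowest chi-square per degree of freedom 7.74). RPKM used exon lengths of GENCODE M21. The GC correction fitted a spline of 5 degrees of freedom to each library, over genes of which 98.89% had a GC value.

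Other settings were DESeq2 1.42.0, RLE factors, no filter, GC correction, only the groups compared, replicate blocks, a batch term and each library left out. Leaving out the 3 GC-poor libraries together and the other settings are given in the closing section. Same-numbered replicates deviated together in every pair (correlation over 0.1) in ALK7, ALK7-DN and sh1/2 cells, and not in every pair in control (lowest 0.079) or sh2 cells (0.093). The pairing comes from these values and the labels' replicate numbers.

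Genes given with a fold change and test in a contrast were those called there. Slc2a2, Hk1, Ldha, Slc16a1, G6pc2 and genes called in 3 or more lines were given in every line, and of each other list the 2 genes with the smallest p in control cells were named, and of the marker lists also those with the smallest p in sh1/2 against control cells. Other genes named were chosen after their values were seen. The genes and lists were chosen with earlier results of these data known.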

Additional observations from a re-analysis of the deposited data

Results flagged for a closer look

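The activin B response differed between sh1/2 and control cells, by an interaction test, for 8 of the 34 tested genes (edgeR quasi-likelihood test, adjusted p under 0.05). The difference in log2 fold change was -0.81 for Slc16a1, -0.29 for G6pc2 and -0.24 for Pfkp. It was 0.95 for Slc16a3, 0.81 for Pcx, 0.77 for Pfkl, 0.55 for Hk1 and 0.43 for Aldoa, whose counts are uncertain. Slc16a1 was called under every alternative that was run. The other 7 were not called when only the groups compared were fitted. Leaving out the 3 GC-poor libraries also ended these 7 calls, but it leaves the sh1/2 DOX arm with 1 library, assumed to vary like the other groups.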

How the results depend on the processing

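Every call of Slc2a2, Pfkfb2 and Slc16a1 in the activin B responses held under every alternative run. The shares of all genes called that were given earlier belong to the main fit, and are no background for the settings below. The counts of genes called out of 34 moved by over 1.5 times as follows. With only the groups compared, 5 were called for activin B in sh1/2 and 5 in control cells, 1 for the sh1/2 response minus the control response, 13 for sh1/2, 1 for ALK7 and 0 for ALK7-DN against control cells with DOX alone, and 0 for ALK7 against control cells with activin B. With the GC correction the counts were 12 in ALK7-DN cells, 4 for the sh1/2 response minus control, 5 and 2 for ALK7 and ALK7-DN against control cells with DOX alone, and 8 for sh2 against control cells with activin B. With the replicate block within each line they were 23 in sh1/2 cells, 15 for the sh1/2 response minus control and 1 for the ALK7 response minus control. With the GC correction and this replicate block together they were 15 in ALK7-DN, 15 in control cells and 1 for the ALK7 response minus control. A batch term estimated from the hairpin lines gave 15 in ALK7-DN cells. This term takes sh2 and sh1/2 cells to respond alike to activin B. For Aldoa, for example, their changes were -0.71 and 0.05, so that count cannot be read as corrected for batch. With no low-count filter there were 4 for the sh1/2 response minus control, 0 for ALK7-DN with DOX alone and 1 for ALK7 with activin B, and RLE factors gave 0 for ALK7-DN with DOX alone. With the 3 GC-poor libraries left out together, which leaves 1 library of sh1/2 cells with DOX alone, assumed to vary like the other groups, there were 4 in sh1/2 cells, 1 for the sh1/2 response minus control and 5 for sh2 against control with activin B. The block within a line could not be fitted for comparisons between lines, where a block over all 30 libraries, chosen after seeing the data, ended no call. In none of these comparisons did same-numbered replicates deviate together in every pair. The lowest correlation was -0.161, for sh1/2 against control cells with DOX alone, so this block says little about how stable the calls are.

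Leaving out 1 library gave 11 to 14 genes in ALK7, 6 to 7 in ALK7-DN, 12 to 15 in sh2, 8 to 18 in sh1/2 and 6 to 9 in control cells. It gave 0 to 0 for the ALK7 response minus control and 1 to 17 for the sh1/2 response minus control. Against control cells with DOX alone it gave 1 to 3 for ALK7, 0 to 1 for ALK7-DN and 18 to 21 for sh1/2, and with activin B 1 to 4 for ALK7, 2 to 4 for sh2 and 13 to 15 for sh1/2. Changes of direction were seen in the activin B response of sh1/2 cells. Under the GC correction Pfkm was at -0.0223, Aldoa at -0.267 and Pcx at -0.0745, and with the block added they were at -0.0235, -0.267 and -0.0747. Without the 3 GC-poor libraries, set against that 1 library with DOX alone, Aldoa was at -0.199 (adjusted p = 0.329) and Pcx at -0.0692 (0.863), so neither direction was called. Leaving out 1 library gave -0.0315 to 0.192 for Aldoa, with -0.0092 without sh1/2 DOX replicate 3, -0.0166 to 0.0856 for G6pc2 and -0.0792 to 0.0448 for Fbp1, with 0.0081 without sh1/2 DOX replicate 2. The cause was not tested. Genes with few counts, such as Hk2, and genes with copies, such as Gapdh and Eno1, are limited by depth or by counting.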
